A study of Mus musculus with 6 samples.

Results

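The genes named Zfp, mouse zinc finger proteins, were examined in liver RNA of mice lacking the cholesterol and phospholipid transporter Abca1 in hepatocytes. A row of the deposited gene table was taken when a part of its name was Zfp followed by a digit and its mean over the 6 libraries was at least 5 normalized reads, the deposited unit, in which each library's reads are divided by its own size factor. Of 364 rows with such a name, 300 had a read in some library and 35 reached that mean (9.62%), against 4495 of all 29981 rows (14.99%). The 35 Zfp genes were thus chosen by their overall level and not by the difference between the groups. The minimum lets a row pass through 1 group alone, which held for 10 of the 35: 5 had a WT mean under 5 and 5 an HSKO mean under 5. Just above the minimum lay Zfp110 at a mean of 5.04, Zfp839 at 5.12 and Zfp706 at 5.14. Just below it lay Zfp318 at 4.93, Zfp180 at 4.79 and Zfp787 at 4.30.

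The study compared C57BL/6 mice in which a Cre recombinase under the Albumin promoter, active in hepatocytes, had removed Abca1 (HSKO, n = 3) with mice carrying the floxed gene, labelled wild type (WT, n = 3). Both groups fasted between 9 am and 1 pm before the livers were taken. The sources used here do not say whether the controls carried Cre, nor how old the mice were. RNA came from whole liver, in which hepatocytes keep their other genes and the other cell types keep Abca1, so fewer cells of a type and less RNA per cell cannot be told apart. The labels do not say that the samples of a group were separate animals, and p-values then refer only to the spread among the samples, which may be technical.

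A zinc finger is a short protein fold held together by a zinc ion, and the name Zfp gathers proteins that share the fold and not a function. Most carry arrays of C2H2 fingers, with a pair of cysteines and a pair of histidines around the zinc, which read DNA. In many of these a KRAB domain at the front recruits the corepressor Trim28, which with the histone methyltransferase Setdb1 and heterochromatin proteins silences transposable elements and imprinted loci. The Zfp36 family is different: its CCCH fingers bind AU-rich elements in messenger RNA and bring in the machinery that removes the poly(A) tail. A few others work on ribosomes, ubiquitin or chromosome segregation.

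The libraries were shallow and differed between the groups in ways that bear on every Zfp value. Recovered reads summed to 838637 to 933319 in WT and 631020 to 702013 in HSKO, and 43.1% to 57.8% of them fell in 1 row. One read was worth 0.564 to 0.763 normalized reads in WT and 1.33 to 1.46 in HSKO. The targeted gene Abca1 had 20, 36 and 34 reads in WT and 2, 1 and 2 in HSKO (log2 fold change -2.62, SE 0.41, limma adjusted p = 0.000753), so all 6 libraries matched their labels. The summed level of 25 hepatocyte markers was 22455 to 25673 in WT and 13858 to 19243 in HSKO. Of these markers 8 were called lower and 0 higher, against 6.94% and 17.3% of all rows tested. The lower count was 4 with upper quartile scaling, 12 with edgeR, 20 with quantile normalization and 22 with total reads. Scaled to the markers themselves it was 0, with 1 higher. The part of the markers in the Zfp results was not tested. Sums of markers of macrophages (14 rows, 70.2 to 119.8 against 59.6 to 106.4) and liver endothelial cells (15 rows, 82.3 to 94.8 against 66.9 to 102.3) overlapped between WT and HSKO. Those of stellate cells (15 rows, 58.8 to 64.9 against 21.9 to 45.1) and cholangiocytes (12 rows, 59.2 to 63.7 against 38.0 to 56.7) were lower in HSKO without overlap. Lymphocyte markers summed to at most 3.99 in any library, with Cd3e, Cd8a and Ms4a1 at 0 throughout, and of the cholangiocyte markers Krt19 and Krt7 were at 0. Nuclear retained RNAs, 8 rows, summed to 29.8 to 39.5 in WT and 34.6 to 48.0 in HSKO, with overlap.

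Zfp transcripts were compared between HSKO and WT livers to ask which of them differ when hepatocytes lack Abca1. Zfp385c, Zfp784, Zfp867, Zfp600, Zfp597 and Zfp710 were called higher in HSKO livers, and Zfp445, a guardian of imprinted loci, and Zfp36l1, an mRNA decay factor, were called lower. Calls are from limma on log2(value + 1) over all 4495 rows with a mean of at least 5, at a Benjamini-Hochberg adjusted p below 0.05, and a log2 fold change is HSKO minus WT on that scale, where changes of low genes come out too small. The 6 higher calls make up 17.1% of the 35 genes, and 17.3% of all rows tested were called higher. The 2 lower calls make up 5.71%, against 6.94% of all rows. The share of Zfp genes called in each direction was thus near the background and is not a result about Zfp genes as a group. At an unadjusted p below 0.05, limma had 11 higher and 2 lower. DESeq2 on the recovered reads called 3 higher and 0 lower at its adjusted p, against 14.3% and 4.36% of all rows.

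Of the 35 genes, 18 had a log2 fold change above 0 and 17 below. Their median log2 fold change was 0.30, with quartiles of -0.37 and 0.90, and the median over all rows tested was -0.08. The groups did not overlap in 8 genes that were higher and 1 that was lower in HSKO, where 22.4% and 18.8% of all rows did so. Set beside rows of the same mean level, the counts were small. Of the 19 Zfp genes with a mean of 5 to under 10, 0 were called higher and 1 lower, against 2.01% and 3.04% of the 1745 rows in that range. Of the 11 with a mean of 10 to under 20, 3 were higher and 1 lower, against 10.2% and 8.07% of 1215 rows. Of the 4 with a mean of 20 to under 50, 2 were higher and 0 lower, against 28.8% and 10.6% of 847 rows. Zfp385c stood alone at 50 or more, where 54.7% of 688 rows were called higher and 10.3% lower.

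Sequences just upstream of 5 of these genes are shown because they carry the clearest rises and both falls. They come from RefSeq on GRCm38.p6 (mm10), run 5′ to 3′ along the gene's own strand, end at the start site and leave out annotated exons. Capitals mark exact matches, on either strand, to 7 motifs. Searched were the GC box as GGGCGG, the CCAAT box by that name's letters, and the ETS motif as CCGGAAG. The cyclic AMP response element was searched as TGACGTCA, the E-box motif as CACGTG, and the TATA box by the letters TATAAA. The NRF1 motif is given by name and allows 1 free base.
Zfp784, chr7:5038447-5038596, minus strand: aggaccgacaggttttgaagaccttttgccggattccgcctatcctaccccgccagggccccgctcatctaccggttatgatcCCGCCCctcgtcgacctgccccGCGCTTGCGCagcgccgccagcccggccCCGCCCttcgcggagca
Zfp867, chr11:59472475-59472624, minus strand: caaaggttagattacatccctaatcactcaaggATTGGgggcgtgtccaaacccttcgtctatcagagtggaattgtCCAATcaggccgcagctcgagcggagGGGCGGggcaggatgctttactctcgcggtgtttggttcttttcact
Zfp385c, chr11:100692467-100692616, minus strand: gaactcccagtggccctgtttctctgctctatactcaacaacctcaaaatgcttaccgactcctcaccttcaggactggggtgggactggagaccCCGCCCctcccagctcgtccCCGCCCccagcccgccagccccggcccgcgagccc
Zfp445, chr9:122866007-122866156, minus strand: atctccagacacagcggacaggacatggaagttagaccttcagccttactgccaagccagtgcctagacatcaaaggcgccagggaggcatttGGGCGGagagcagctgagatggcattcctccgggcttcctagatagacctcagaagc
Zfp36l1, chr12:80113014-80113163, minus strand: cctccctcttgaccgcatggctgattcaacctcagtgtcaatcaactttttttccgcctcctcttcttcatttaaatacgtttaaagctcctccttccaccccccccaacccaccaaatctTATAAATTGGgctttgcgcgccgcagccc
The Zfp784 sequence holds 2 GC boxes and an NRF1 match, and its 150 bases contain 18 CpG pairs, against 8 in Zfp867 and in Zfp385c, 6 in Zfp36l1 and 4 in Zfp445. Zfp867 has 2 CCAAT matches and 1 GC box, the distal start of Zfp385c has 2 GC boxes and Zfp445 has 1. Sequences before the other listed starts of Zfp385c, chr11:100650694-100650843 and chr11:100650748-100650897, are not printed. They hold no match, and 1 and 0 CpG pairs. In Zfp36l1 a TATA match overlaps a CCAAT match read on the other strand. Over the 250 bases before the start, 29 of the 35 Zfp genes matched an entry. A GC box lay in 16 of these (55.2%), CCAAT in 14 (48.3%), the ETS motif in 6 (20.7%), the NRF1 motif in 3 (10.3%), the cyclic AMP element and TATAAA in 2 each (6.90%) and CACGTG in 1 (3.45%). Among all 27025 genes with an entry, which include noncoding ones, the shares in this order were 35.4%, 37.5%, 7.83%, 4.23%, 1.77% for the cyclic AMP element, 14.3% for TATAAA and 6.86% for CACGTG. A match describes letters and not a site in use.

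Zfp385c, a relative of the p53 cofactor Zfp385a, had by far the highest level of the 35, also per length. The WT libraries held 227, 159 and 114 normalized reads and the HSKO libraries 343, 372 and 342, and every HSKO library lay above every WT library. Per kilobase of exon its level was 53.7 in WT and 114 in HSKO, and the next gene, Zfp784, was at 7.61 and 19.4. The log2 fold change of Zfp385c was 1.13 (SE 0.25, limma adjusted p = 0.00291). Raw reads did not separate the groups (297, 242 and 202 for WT, 235, 256 and 257 for HSKO), so the rise rests on the size factors. HSKO over WT reads, after size factors, gave a ratio of 2.19 (exact 95% interval 1.97 to 2.43, for counting error alone). The call was lost with scaling to total reads (limma adjusted p = 0.0982) and with quantile normalization (0.0757). The gene lies on the minus strand of chromosome 11 (mm10) from 100627543 to 100692455, and its protein holds 3 C2H2 fingers by pattern. Raw reads of the other genes called higher also overlapped between the groups, so their rises rest on the size factors too. Summed reads in WT and HSKO were 74 and 90 for Zfp784, 80 and 83 for Zfp867, and 30 and 33 for Zfp600. For Zfp597 they were 38 and 41, and for Zfp710 54 and 48.

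Zfp784, with 6 C2H2 fingers in a protein of 297 residues, had values of 17.6, 19.7 and 11.8 in WT and 32.2, 33.4 and 59.8 in HSKO. The groups did not overlap, and HSKO replicate 3 was the highest (log2 fold change 1.27, SE 0.31, limma adjusted p = 0.00577). Reads numbered 23, 30 and 21 for WT and 22, 23 and 45 for HSKO, a corrected ratio of 2.64 (exact 95% interval 1.92 to 3.64). It lies on the minus strand of chromosome 7 from 5034439 to 5038446, where exons of Zfp865 on the opposite strand cover 94.8% of its exon length. The strand setting of the counting is not given, so reads of both genes cannot be told apart by it. The row of Zfp865 itself was lower in HSKO, at 0 to 1.45 against 3.05 to 3.38, and was too low to be tested.

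**Figure D1:**
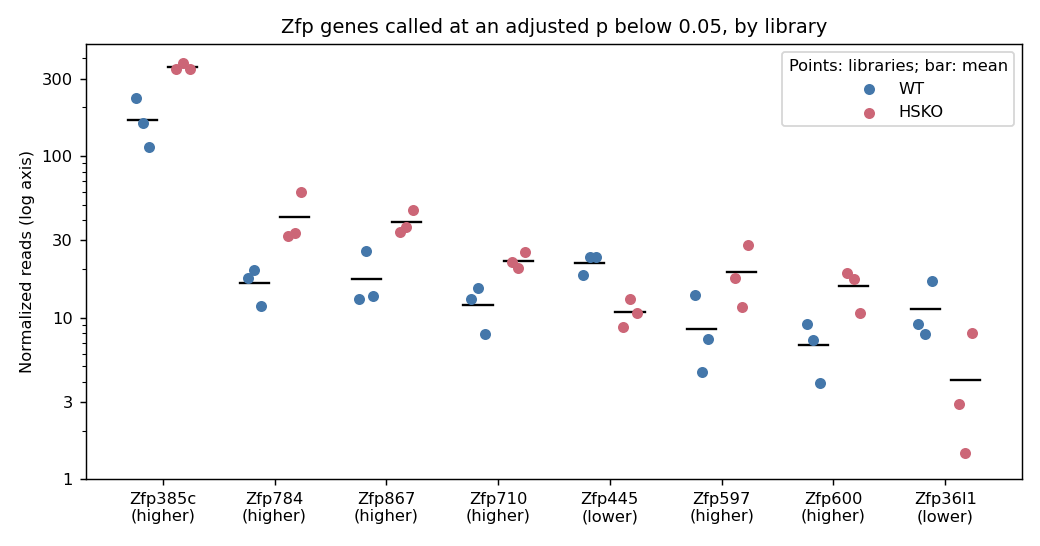
Normalized reads (log axis) of the 8 Zfp genes called in HSKO against WT, with 1 point per library, 3 libraries per group and a bar at each group mean. Zfp385c sits at 114 to 372, above the others, and the groups overlap for Zfp597 and Zfp36l1.

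Zfp867 carries 10 C2H2 fingers and a KRAB-like signature. WT libraries stood at 12.97, 25.7 and 13.5 and HSKO libraries at 33.6, 36.4 and 46.5. All HSKO libraries exceeded the WT libraries, with WT replicate 2 nearest to them (log2 fold change 1.17, SE 0.31, limma adjusted p = 0.00910). Its reads numbered 80 in WT and 83 in HSKO, a corrected ratio of 2.25 (exact 95% interval 1.63 to 3.10). It lies on chromosome 11 from 59461197 to 59472474, with no annotated exon of another gene over its own.

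Zfp600, the other called gene with a KRAB-like signature, has 17 fingers, the most of the 35. Its WT values were 9.16, 7.24 and 3.95, and its HSKO values 19, 17.4 and 10.6. The groups were apart by little, from 9.16 to 10.6, and rest on 7 to 13 reads a library (log2 fold change 1.12, SE 0.38, limma adjusted p = 0.0361). It lies on chromosome 4 from 146156824 to 146198755, and how reads shared with near-identical genes were counted is not known. The call was lost without WT replicate 2 (limma adjusted p = 0.0647), WT replicate 3 (0.185), HSKO replicate 1 (0.112) or HSKO replicate 2 (0.0978), and in DESeq2 (0.0961).

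Zfp710 and Zfp597 were called close to the threshold. Zfp710, with 11 fingers, had 12.97, 15.1 and 7.90 in the WT libraries and 21.9, 20.4 and 25.3 in the HSKO libraries, without overlap (log2 fold change 0.89, SE 0.32, limma adjusted p = 0.0465). Zfp597, with 7 fingers, had 13.7, 4.61 and 7.33 against 17.5, 11.6 and 27.9 in HSKO, where WT replicate 1 lay above HSKO replicate 2 (log2 fold change 1.10, SE 0.40, limma adjusted p = 0.0482). On the opposite strand, exons of Gm26675 share 22.9% of the exon length of Zfp597, those of Zfp174 3.92% and those of Naa60 0.33%. No row was matched to Gm26675, Zfp174 was at 0 to 1.53 in WT and at 0 in HSKO, and Naa60 was called lower, from a WT mean of 14.7 ± 3.27 to 6.23 ± 3.18 (SD, n = 3, limma adjusted p = 0.0340). The call of Zfp710 was lost without each library in turn, with adjusted p from 0.0532 to 0.228, and in edgeR (0.0543) and DESeq2 (0.140). That of Zfp597 was lost without WT replicate 2 (adjusted p = 0.219), WT replicate 3 (0.129), HSKO replicate 1 (0.0944) or HSKO replicate 3 (0.194).

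Zfp445, which with Zfp57 protects imprinted methylation marks, was lower in HSKO. WT values of 18.3, 23.7 and 23.7 stood against HSKO values of 8.77, 13.1 and 10.6, and no HSKO library reached a WT library. Reads numbered 24, 36 and 42 against 6, 9 and 8 (log2 fold change -0.96, SE 0.31, limma adjusted p = 0.0295), a corrected ratio of 0.489 (exact 95% interval 0.297 to 0.774). The gene lies on chromosome 9 from 122844529 to 122866006. Its protein holds 12 fingers and a KRAB-like signature that lies beyond the first 200 residues searched for the classes below. The call was lost without WT replicate 2 (adjusted p = 0.115), WT replicate 3 (0.119) or HSKO replicate 1 (0.0757), and in DESeq2 (0.0926).

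Zfp36l1, Zfp36 (tristetraprolin) and Zfp36l2, the CCCH proteins that direct decay of AU-rich messenger RNAs, all had log2 fold changes below 0, and Zfp36l1 alone was called. Zfp36l1 was at 9.16, 7.90 and 16.9 in WT and at 2.92, 1.45 and 7.98 in HSKO, where HSKO replicate 3 lay just above WT replicate 2. Its reads were 12, 12 and 30 against 2, 1 and 6 (log2 fold change -1.41, SE 0.51, limma adjusted p = 0.0499). Without any 1 of the 3 WT libraries, HSKO replicate 1 or HSKO replicate 2 the call was lost, with adjusted p from 0.0732 to 0.287, as it was in DESeq2 (0.124). Without HSKO replicate 3 it held. Its HSKO mean was 4.12, so it passed the minimum through WT alone. Zfp36 was at 6.87, 9.87 and 10.2 in WT and 2.92, 7.27 and 7.98 in HSKO (log2 fold change -0.57, SE 0.44, adjusted p = 0.353). Zfp36l2 was at 6.87, 6.58 and 11.3 in WT and 2.92, 10.2 and 6.65 in HSKO (log2 fold change -0.38, SE 0.46, limma adjusted p = 0.573). HSKO replicate 1 was lowest for both of these genes, at 2 reads each. Whether Zfp36l1 differed more than its relatives was not tested. Exons of a long noncoding RNA on the opposite strand cover 55.9% of the exon length of Zfp36l1.

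The other 27 genes did not pass, with adjusted p from 0.0691 to 0.973 and log2 fold changes from -0.85 to 1.45, 12 above 0 and 15 below. Their reads were few, and a missing call does not show that a gene is unchanged. Of the 35 genes, 18 had under 10 reads in every HSKO library and none had 0 in any library. The standard error of the log2 fold change ran from 0.25 to 0.66, with a median of 0.40 against 0.36 over all rows tested.

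Patterns in the proteins, counted from the longest GENCODE M21 coding sequence, split the 35 genes into 4 classes. Fingers were counted as a C2H2 pattern, and a KRAB-like signature as a 6-residue string with up to 2 mismatches in the first 200 residues. Neither pattern was used to choose the genes. Of all coding genes in the annotation, 638 had 3 or more C2H2 fingers and 298 of those the signature, as did 343 genes with fewer fingers, so the signature alone does not make a KRAB domain.

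The 8 genes with at least 3 fingers and the signature were Zfp867, Zfp600, Zfp872, Zfp266, Zfp955b, Zfp612, Zfp940 and Zfp110, with 6 to 17 fingers. Of these, 2 were called higher and 0 lower, where 17.3% and 6.94% of all rows were called. All but Zfp110 had log2 fold changes above 0 (median 0.90), and this count of 7 was 6 with scaling to total reads. The minimum helps to set these signs and the count supports nothing: Zfp872, Zfp266 and Zfp940 had WT means under 5 and passed through HSKO, and Zfp110 had an HSKO mean under 5 and passed through WT. Zfp872 had the largest estimate of the 35, 1.45 (SE 0.66, limma adjusted p = 0.111), from 4, 1 and 6 reads in WT and 2, 6 and 11 in HSKO. Zfp266 was at 3.82, 4.61 and 2.26 in WT and 7.31, 7.27 and 11.97 in HSKO without overlap (limma adjusted p = 0.0968). Zfp955b and Zfp612 also did not overlap, with limma adjusted p of 0.211 and 0.215, at means of 5.96 ± 0.897 and 10.4 ± 2.95 for Zfp955b and 6.43 ± 1.28 and 10.9 ± 3.25 for Zfp612 (SD, n = 3). Zfp940 was at 5.34, 5.92 and 2.82 in WT and 13.1, 7.27 and 2.66 in HSKO, which spans the WT range (limma adjusted p = 0.567). Zfp110, the gene just above the minimum, was at 2.29, 9.87 and 6.77 in WT and 5.85, 1.45 and 3.99 in HSKO, with overlap (log2 fold change -0.58, SE 0.62, limma adjusted p = 0.516).

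The 18 genes with at least 3 fingers and no signature near the front had 4 higher calls, 1 lower and 13 neither, near the 17.3% and 6.94% of all rows (median log2 fold change 0.54). The median turned negative, to -0.07, with scaling to total reads. Beside the called ones, those above 0 were Zfp771, Zfp622, Zfp335, Zfp276, Zfp281, Zfp697 and Zfp668. Of these, Zfp276 and Zfp281 had WT means under 5 and passed through HSKO, so the minimum helps to set their signs. Zfp771 was at 14.5, 3.95 and 7.33 in WT and 20.5, 13.1 and 15.96 in HSKO, and WT replicate 1 overlapped HSKO (log2 fold change 1.00, limma adjusted p = 0.0691). Zfp622, which acts in maturation of the large ribosomal subunit, was at 8.12 ± 5.23 and 14.9 ± 5.73, and Zfp335, part of a histone methyltransferase complex, at 11.7 ± 3.96 and 22.0 ± 9.00 (SD, n = 3, limma adjusted p = 0.121 and 0.107). Zfp281, a repressor of the pluripotency gene Nanog, had WT values of 2.29, 2.63 and 7.33 and HSKO values of 2.92, 5.82 and 11.97, high in replicate 3 of both groups (limma adjusted p = 0.474). Zfp668 was level in WT, at 11.3 to 12.2, and at 11.6 to 20.5 in HSKO (limma adjusted p = 0.522). Zfp697, next after Zfp385c by mean level, was at 42.0, 42.1 and 24.8 in WT and 49.7, 74.2 and 33.2 in HSKO, with overlap (log2 fold change 0.48, SE 0.31, limma adjusted p = 0.262). Its annotated span on chromosome 3, from 98382461 to 98753812, also shares exon bases with the steroid dehydrogenase genes Hsd3b2 and Hsd3b3 on the opposite strand.

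Those below 0 in this class, beside Zfp445, were Zfp655, Zfp768, Zfp106, Zfp422, Zfp397 and the row naming Zfp91Cntf and Zfp91. Zfp106 is an RNA-binding protein needed to maintain motor nerves and muscle, and its group means were 19.2 ± 3.61 and 14.6 ± 2.51 with overlap (SD, n = 3, limma adjusted p = 0.397). Zfp655, at 6.91 ± 2.74 and 4.24 ± 2.91, and Zfp768, at 6.26 ± 0.95 and 4.16 ± 2.16, had HSKO means under 5 (SD, n = 3, limma adjusted p = 0.385 and 0.446). Zfp422, at 10.9 ± 3.75 and 9.90 ± 1.52, and Zfp397, at 6.26 ± 2.06 and 5.75 ± 2.67, lay closest to no difference in this class (SD, n = 3, limma adjusted p = 0.866 and 0.834). Zfp91 encodes a ubiquitin ligase, and Zfp91Cntf is a read-through into the neighbouring Cntf, so the value of this row is shared. It was at 22.9, 40.8 and 38.4 in WT and 33.6, 24.7 and 19.9 in HSKO, with overlap (log2 fold change -0.36, SE 0.30, limma adjusted p = 0.402).

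The 6 genes with under 3 C2H2 fingers by pattern were Zfp259, Zfp598, Zfp750, Zfp706, Zfp207 and Zfp839, and limma called 0 of them, also at an unadjusted p below 0.05. Over all rows 17.3% were called higher and 6.94% lower. DESeq2 and edgeR called 0 of the 6 as well, while Zfp598 and Zfp259 were called lower with total reads, with or without the largest row. All 6 log2 fold changes were below 0 (median -0.24), as were 5 with upper quartile scaling, 3 with quantile normalization and 2 with scaling to hepatocyte markers. Zfp598, the ubiquitin ligase that marks collided ribosomes, was at 19.1, 18.4 and 16.9 in WT and 19, 5.82 and 11.97 in HSKO. HSKO replicate 1 lay within the WT range and the other HSKO libraries below it (log2 fold change -0.66, limma adjusted p = 0.187). Zfp259, now named Zpr1, was at 9.92, 12.5 and 8.46 against 1.46, 5.82 and 13.3, with HSKO replicate 3 the highest of the 6 libraries (limma adjusted p = 0.230). Zfp207, which serves attachment of chromosomes to the spindle, was at 8.24 ± 2.32 and 7.48 ± 1.74 (SD, n = 3). Zfp750 drives epidermal differentiation and was at 6.10 ± 2.07 and 5.93 ± 5.23. Zfp706 was at 4.58, 4.61 and 7.33 in WT and 4.38, 7.27 and 2.66 in HSKO, with overlap (log2 fold change -0.23, SE 0.53, limma adjusted p = 0.785). Its HSKO mean was 4.77, so it passed the minimum through WT, which helps to set its sign. Zfp839 was at 6.11, 3.29 and 5.64 in WT and 8.77, 2.91 and 3.99 in HSKO, whose range covers that of WT (log2 fold change -0.029, SE 0.55, limma adjusted p = 0.973).

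**Figure D2:**
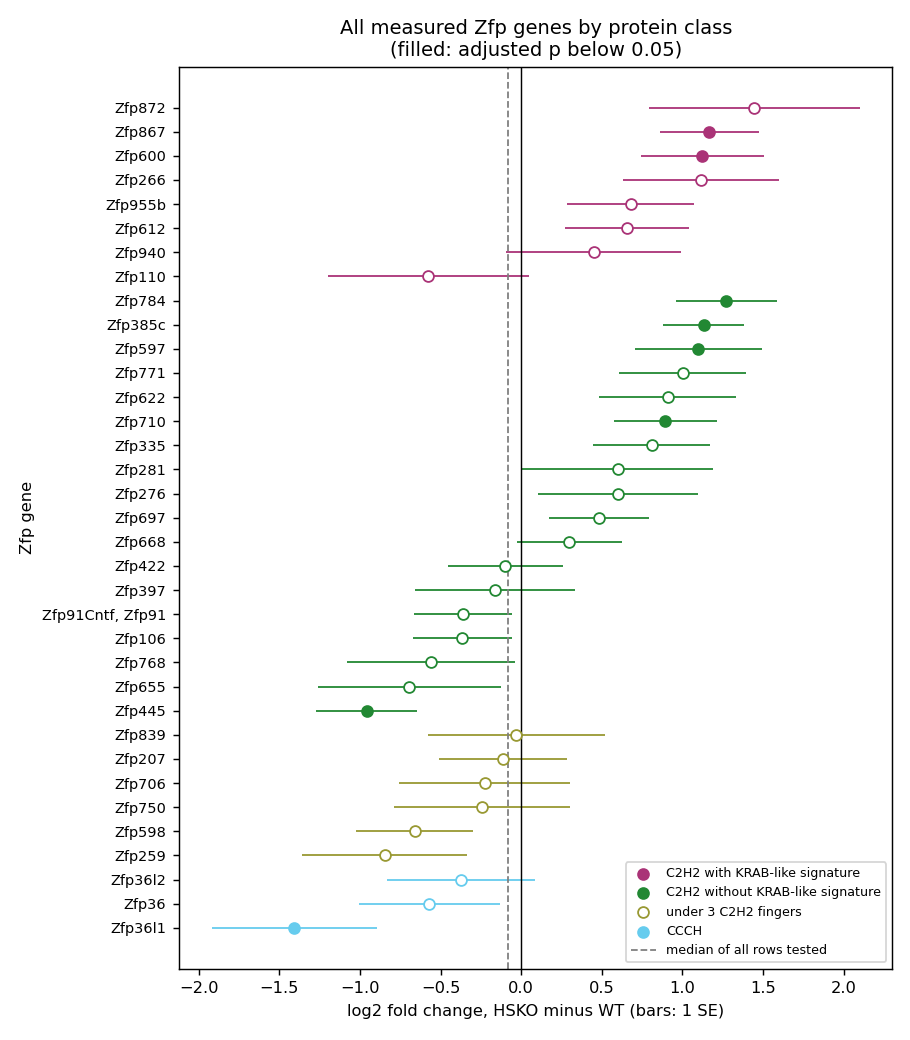
Log2 fold change, HSKO minus WT, of all 35 Zfp genes (points, bars of 1 SE), grouped and coloured by protein class, with filled points for the 8 genes called and a dashed line at the median of all rows tested, -0.08. Filled points lie on both sides of 0, 6 above and 2 below, and the bars of Zfp872 and Zfp110 are among the widest.

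Levels summed over every Zfp row of a class, with no minimum, did not all follow the genes above the minimum (11 rows had no coding sequence and are in no class). The 189 rows of the KRAB-like class summed to 189, 251 and 222 in WT and 238, 221 and 251 in HSKO, with overlap. Within them the 8 measured genes summed to 42.9 to 66.5 in WT and 94.5 to 110.4 in HSKO, and the 181 rows under the minimum to 138 to 184 and 127 to 141. The minimum left 4.23% of this class and 14.1% of the class without the signature. The latter, 128 rows, summed to 547 ± 53.0 in WT and 772 ± 18.4 in HSKO, and without Zfp385c to 380 ± 10.9 and 419 ± 10.9 (SD, n = 3). Its 110 rows under the minimum summed to 153 ± 14.9 and 125 ± 8.54. The 4 CCCH rows summed to 22.9, 24.3 and 38.4 in WT and 8.77, 18.9 and 22.6 in HSKO, all lower in HSKO by a small gap. In the KRAB-like class 95 to 118 rows had a read in a WT library and 62 to 67 in an HSKO library. Over the whole table these numbers were 10920 to 11422 and 9068 to 9499, and the HSKO libraries held fewer reads.

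**Figure D3:**
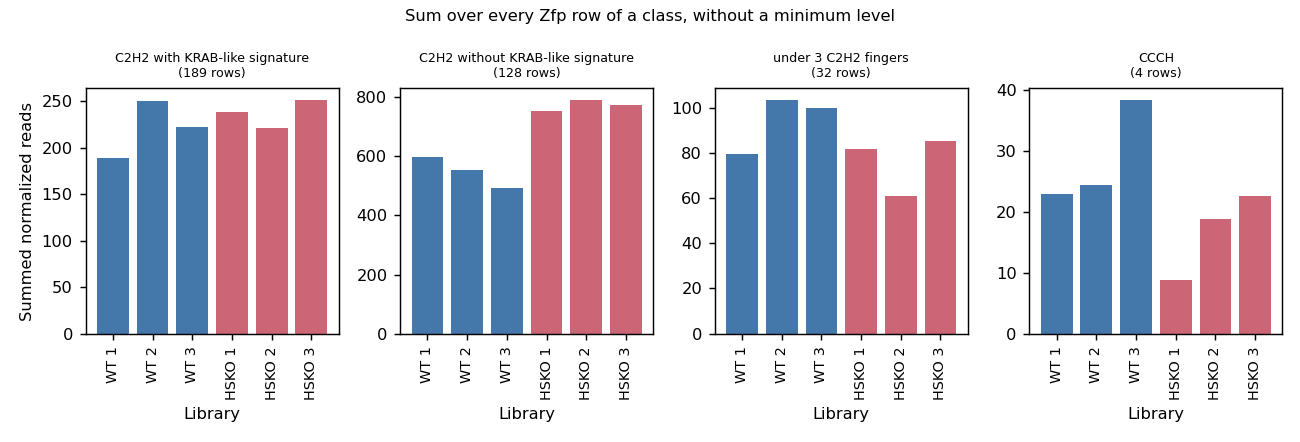
Summed normalized reads per library over every Zfp row of each protein class, 189, 128, 32 and 4 rows, with no minimum level and separate linear axes from 0. The groups overlap for the KRAB-like class, and the class without the signature is higher in all 3 HSKO libraries in normalized but not in raw reads.

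The 35 genes lay on 16 chromosomes, with 8 on chromosome 7, 4 each on chromosomes 9 and 11 and 3 on chromosome 17. Another Zfp gene was annotated within 250 kb of 14 of them, Zfp940 having 12 such neighbours and Zfp771 and Zfp768 having 6. The 8 genes on chromosome 7 had 2 higher calls and 0 lower, against 17.3% and 6.94% of all rows, and their median log2 fold change was 0.37. Exons of another annotated gene overlapped those of 16 of the 35. Among these was Zfp276, whose exons share 16.6% of their length with Fanca on the opposite strand. Fanca rose from 11.9 ± 2.27 to 49.4 ± 17.4 (SD, n = 3, limma adjusted p = 0.000779), and Zfp276 was at 4.13 ± 0.73 and 6.99 ± 2.47 (adjusted p = 0.391).

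Partners of the Zfp proteins were read from lists of genes known for these roles. Of 13 tested genes of the KRAB corepressor machinery, which includes Trim28, Setdb1 and the heterochromatin proteins, limma called 0 in either direction, also at an unadjusted p below 0.05 (median log2 fold change -0.23). The list had 0 calls in edgeR too, while scaling to total reads gave 6 lower and scaling to hepatocyte markers 1 higher. Of 11 tested partners of the Zfp36 proteins in mRNA decay, 1 was lower and 0 higher, against 6.94% and 17.3% of all rows. The counts were 0 lower with quantile normalization, 3 lower with total reads, and 0 lower and 1 higher with hepatocyte markers. The gene called was Mapk14, a p38 kinase, which passed the minimum through WT alone, at 9.92, 11.2 and 8.46 in WT and 2.92, 0 and 5.32 in HSKO, without overlap (log2 fold change -1.89, SE 0.63, limma adjusted p = 0.0348).

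Other zinc finger families gave further values for the same comparison. Of 10 tested Zbtb genes, whose fingers sit beside a BTB domain, 5 were called higher and 0 lower against 17.3% and 6.94% of all rows, and all 10 log2 fold changes were above 0 (median 0.83), or 6 of 10 with either scaling to total reads, where 0 or 1 were called higher. Zbtb45 was at 19.1, 21.7 and 11.8 in WT and 30.7, 49.4 and 45.2 in HSKO, without overlap (limma adjusted p = 0.00635). Zbtb11 rose from 31.1 ± 8.97 to 62.3 ± 13.8, Zbtb32 from 10.3 ± 3.02 to 22.6 ± 1.84 and Zbtb39 from 9.32 ± 0.234 to 20.04 ± 5.72 (SD, n = 3), with limma adjusted p of 0.0153, 0.0155 and 0.0292. Zscan29 was the tested gene of its family and rose from 56.7 ± 6.46 to 125 ± 4.80 (limma adjusted p = 0.00199). Of 11 tested other C2H2 factors 1 was called, Mtf1, the metal-responsive factor, which rose from 51.9 ± 16.3 to 112 ± 22.6 (limma adjusted p = 0.00498). Of 5 Klf and Sp, 8 Zc3h and 3 Zkscan genes limma and edgeR called 0, and at an unadjusted p below 0.05 limma had 3 Zc3h genes, all higher. Of the Zc3h genes 2 were higher with upper quartile scaling and 3 with hepatocyte markers, 2 were lower with total reads and 1 when the largest row was left out of these, and 1 Klf or Sp gene was lower with total reads. Of 10 tested Trim genes 1 was higher, Trim13, whose groups overlapped (5.32 ± 5.57 and 15.8 ± 7.78, SD, n = 3, limma adjusted p = 0.0339), and of 4 Zdhhc genes, palmitoyltransferases, 2 were higher, Zdhhc5 and Zdhhc17. The share of all rows called higher was 17.3%. With total reads, 0 Zdhhc, Trim, Zscan or other C2H2 genes were higher, and 1 each of Zdhhc, Trim and the other C2H2 factors was lower. With the largest row left out, 0 Zdhhc genes were higher. Trim genes had 3 higher in edgeR and 4 with hepatocyte markers, and the other C2H2 factors had 4 with these markers.

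The number of Zfp genes called depended on how the libraries were scaled, as did the share of all rows. As deposited 6 were higher and 2 lower. The counts were 7 and 0 with upper quartile scaling, 4 and 1 with quantile normalization, 6 and 2 with edgeR and TMM, and 14 and 0 with scaling to hepatocyte markers. With scaling to total reads they were 0 and 6, and 2 and 5 when the largest row was left out. In the order of these 6, the share of all rows called higher was 19.4%, 13.1%, 17.6%, 27.9%, 4.83% and 8.85%, and that called lower 4.76%, 10.3%, 10.01%, 0.578%, 33.5% and 27.5%. The median log2 fold change of all rows shifted by 0.09, 0.05, -0.05, 0.53, -0.61 and -0.45 from that of the deposited scaling. A scaling by 1 divisor per library moves all rows nearly alike, which quantile normalization does not. Across the scalings, the distance between the median of the Zfp genes and that of all rows ran from 0.32 (quantile normalization) to 0.41 (edgeR). That distance was 0.38 as deposited, 0.25 without WT replicate 3 and 0.11 without HSKO replicate 1. It is not matched by level. As deposited, the 19 Zfp genes with a mean of 5 to under 10 had a median of -0.16, against -0.24 for other rows in that range. The medians were 0.81 and -0.14 at 10 to under 20 (11 Zfp genes), and 0.83 and 0.12 at 20 to under 50 (4 Zfp genes).

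Single genes differed in how far their calls held across the 7 scalings. Zfp784 was called higher in 6, the exception being total reads, with log2 fold changes from 0.62 to 1.83. Zfp385c, Zfp867, Zfp600 and Zfp597 were called higher in 5 and Zfp710 in 3. Zfp445 was called lower in 5, with log2 fold changes from -1.59 to -0.40, and Zfp36l1 in 4, from -1.95 to -0.93. The sign of all 8 called genes was the same in the 7 scalings. Calls of Zfp784, Zfp867 and Zfp385c also held in DESeq2 and without each library in turn.

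**Figure D4:**
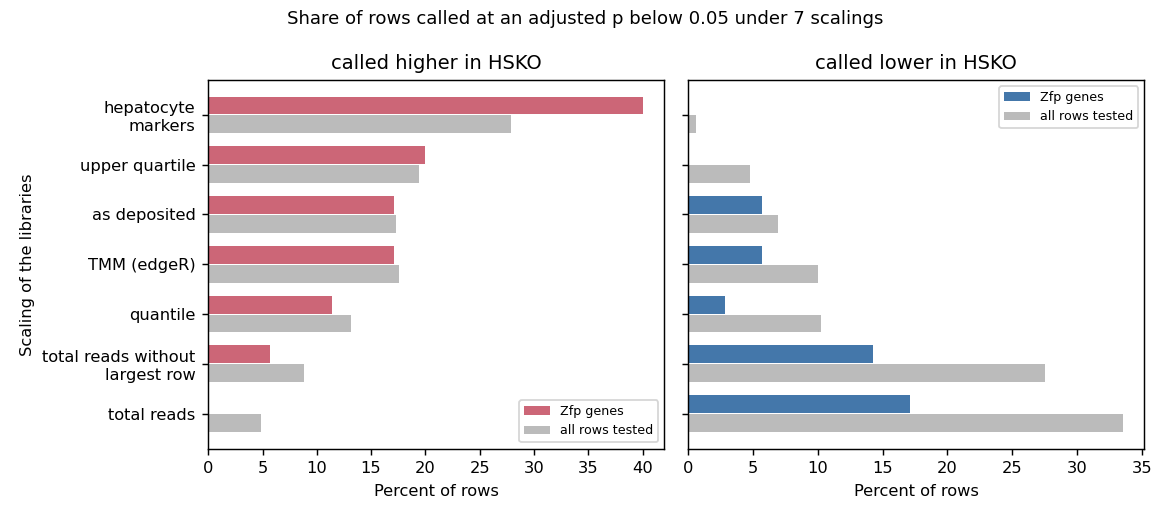
Percent of the 35 Zfp genes (coloured bars) and of all 4495 rows tested (grey bars) called higher or lower in HSKO at an adjusted p below 0.05, under 7 scalings of the libraries. Higher calls among Zfp genes run from 0 with total reads to 14 genes with hepatocyte markers, and the grey bars move the same way.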

How the data were processed

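Messenger RNA of 6 mouse liver samples, 3 per group, was sequenced from both ends after a stranded library preparation, per the labels' protocols. The deposited signal per gene row holds the authors' reads per gene over each library's own size factor. Named tools in the submitters' processing notes are DESeq 1.16.0, RSEM 1.2.9, Bowtie and FastQC 0.11.3, and the build is mm10. The sources used here do not give the annotation, read filters or strand setting. Dividing by the value of 1 read gave whole reads for 100% of values within a tolerance of 0.001.

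Groups were compared on log2(value + 1) by limma 3.58.1 (R 4.3.3) with a trend of variance on level, 2-sided, over rows with a mean of at least 5. All adjusted p-values are Benjamini-Hochberg over all rows tested. On the recovered reads, DESeq2 1.42.0 and edgeR 4.0.16 were alternatives. The limma procedure was tested on simulated reads with an assumed spread between libraries. It recovered 8 of 100 rows changed 2-fold and 64 of 100 changed 4-fold, with 2 false calls among 74. At a mean under 20 it recovered 2 of 68 and 33 of 66. Far fewer rows were changed there than were called in the data, 779 higher and 312 lower. The adjusted threshold was therefore stricter in the simulation, and its rates of recovery do not carry over to the data. The Zfp genes, lists and tests were chosen with earlier results of these data known. Zfp genes named with full values were those called, the 5 with the highest mean, the Zfp36 family, the row naming several genes and those next to the minimum, and the rest are named by class. Values by library of other uncalled genes (Zfp266, Zfp872, Zfp940, Zfp771, Zfp281, Zfp598 and Zfp259) were added after their values were seen. From the lists, up to 4 called genes with the smallest p were named.

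Positions and overlaps are those of GENCODE M21 (mm10), where 35 of 35 genes matched, 1 by an older symbol. Its coding sequences were translated for the patterns, in place of the RefSeq proteins first planned, which were not used here, and its merged exons gave the lengths. Intervals of read ratios are exact, at 95%, and reflect counting error alone, because amplified copies of a molecule count as reads. Compared over genes, the reads of HSKO replicates 1 and 2 differed by a chi-square of 2.12 per degree of freedom, the smallest of all pairs, and the other pairs by 5.85 to 21.0, so each library counted once.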

Additional observations from a re-analysis of the deposited data

How the results depend on the processing

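Abca1 kept its direction and call in all 22 alternatives that gave it a value. The count of 6 higher Zfp genes was 3 with no filter, 3 with a mean of at least 20, 3 in DESeq2, 0 with total reads, 2 with total reads without the largest row and 14 with hepatocyte markers, and it ran from 3 to 7 when 1 library was left out, 3 being the count without WT replicate 2 or WT replicate 3. The count of 2 lower genes was 1 with a pseudocount of 0.5, a mean of at least 10 or quantile normalization. It was 0 with no filter, a mean of at least 20, upper quartile scaling, hepatocyte markers, no trend or DESeq2, 6 with total reads, 5 with total reads without the largest row, and 0 to 2 when 1 library was left out. Stricter minimums tested 16 and 5 of the genes. The median log2 fold change of 0.30 was 0.85 and 1.13 with these minimums, 0.85 with hepatocyte markers, -0.33 with total reads, -0.16 with total reads without the largest row, and 0.042 (without HSKO replicate 1) to 0.32 when 1 library was left out. With the stricter minimums the median of all rows rose too, from -0.08 to 0.07 and 0.41. The cause of these changes was not tested.

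Of the 7 uncalled genes followed one by one, 5 changed sign under some alternatives. Over all 35 genes, the number above 0 went from 18 to 27 with hepatocyte markers, 22 with quantile normalization and 15 with total reads. Zfp697 was at -0.18 with total reads. With hepatocyte markers, Zfp36l2 was at 0.13, Zfp706 at 0.27, Zfp839 at 0.46 and the Zfp91 row at 0.22. With quantile normalization Zfp706 was at 0.040 and Zfp839 at 0.28, and Zfp839 was at 0.057 with upper quartile scaling, 0.12 with array weights and 0.006 with a pseudocount of 10. When 1 library was left out, Zfp36l2 ran from -0.72 to 0.037, Zfp706 from -0.52 to 0.063 and Zfp839 from -0.41 to 0.25.

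Same-numbered libraries of the groups did not deviate together (correlations of -0.02, -0.02 and -0.01 across genes). No pairing by number was thus seen, but with few reads per gene this cannot exclude it. With the replicate number as a block 5 Zfp genes were higher and 2 lower, with the same median of 0.30, and Zfp710 was not called (adjusted p = 0.0647). Over all rows the block gave 740 higher and 267 lower calls, against 779 and 312 without it. The few reads per gene, 1 to 13 in many HSKO values, limit every statement on genes with a mean under 20.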
